A study of Mus musculus with 26 samples.

Results

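Voltage-gated potassium channel genes were followed across 13 subtypes of mouse retinal neurons. The genes were chosen by name: every gene on the array whose symbol begins with Kcna to Kcnh, Kcnq, Kcns or Kcnv followed by a number, 37 of the 18193 genes that the probe table names with a single symbol. Besides channel subunits the rule takes in the Kcne genes, whose products are accessory proteins, and Kcnq1ot1, a long noncoding RNA from the Kcnq1 locus. None of the 37 was a Kcnb gene. Each gene was read from the brightest of its probe sets, and 27 of the 37 had signal above the overall median on at least 2 arrays and were tested.

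RNA came from retinas of mice at postnatal day 6, dissociated with papain, and cells were sorted by a fluorescent or beta-galactosidase reporter. The bipolar groups were ON bipolar cells (GFP+, C57BL/6) and MP bipolar cells (CFP+ VC1.1-, mixed C57BL/6 x CD1). The 6 groups of retinal ganglion cells were all gated as Thy1+. BD, J, W3 and W7 ganglion cells were YFP+ and Isl2 ganglion cells bgal+, all on C57BL/6, and Cdh3 ganglion cells were GFP+ from a BAC line whose replicates are labelled Swiss Webster x C57BL/7 and Swiss Webster x C57BL/8. The 5 amacrine groups were AII (GFP+, Swiss Webster x C57BL/6), J (YFP+, described as glycinergic, C57BL/6), MP (CFP+ VC1.1+, mixed C57BL/6 x CD1), PaxCre (GFP+, described as GABAergic, C57BL/6) and starburst (Kusabira Orange+ Thy1-, C57BL/6). Every group had 2 arrays, from different litters. No group was treated, and each is a reporter-defined pool of cells, so that fewer cells of a type in the pool and less RNA per cell cannot be told apart.

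Voltage-gated potassium channels open when a neuron depolarizes and let potassium leave, which ends the action potential and sets how fast and how regularly a cell can fire. A channel is built of 4 pore-forming subunits. Subunits of the Shaker (Kcna), Shaw (Kcnc), Shal (Kcnd), KCNQ and EAG (Kcnh) families form channels, whereas the modifier subunits (Kcnf, Kcng, Kcns, Kcnv) are silent alone and act by joining subunits of the Kcnb family. In the retina the ganglion cells send action potentials down the optic nerve, bipolar cells signal largely with graded potentials, and amacrine cells range between these modes.

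The stretches just upstream of the annotated starts are shown for 5 genes with large differences: Kcnd2, Kcna6 and Kcne4, high in ganglion cells, Kcnf1, high in starburst cells, and Kcnh1, high in AII cells. They were chosen among genes with an entry in the promoter table, and Kcna1, Kcnq3 and Kcns2 are not shown. Each is the 250 bases before the start in the RefSeq annotation of GRCm38.p6, read 5′ to 3′ in the direction of the gene. Capitals mark GGGCGG on either strand and TAATTA, which reads alike on both.
Kcnd2, chr6:21215096-21215345, plus strand: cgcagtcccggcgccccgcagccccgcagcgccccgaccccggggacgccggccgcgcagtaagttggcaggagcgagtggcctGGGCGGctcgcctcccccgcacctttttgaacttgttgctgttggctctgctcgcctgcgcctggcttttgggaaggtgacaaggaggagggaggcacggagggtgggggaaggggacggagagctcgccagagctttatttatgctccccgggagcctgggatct
Kcna6, chr6:126740675-126740924, minus strand: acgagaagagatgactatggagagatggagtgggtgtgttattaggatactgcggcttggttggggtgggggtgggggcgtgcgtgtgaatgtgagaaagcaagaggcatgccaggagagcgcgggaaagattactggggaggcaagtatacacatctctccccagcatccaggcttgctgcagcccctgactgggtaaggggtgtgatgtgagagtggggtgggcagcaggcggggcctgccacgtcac
Kcne4, chr1:78816661-78816910, plus strand: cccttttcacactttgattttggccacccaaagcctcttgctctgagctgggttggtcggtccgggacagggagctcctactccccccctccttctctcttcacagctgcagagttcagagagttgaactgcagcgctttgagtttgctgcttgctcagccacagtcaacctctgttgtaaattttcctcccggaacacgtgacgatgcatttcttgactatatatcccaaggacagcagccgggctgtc
Kcnf1, chr12:17176889-17177138, minus strand: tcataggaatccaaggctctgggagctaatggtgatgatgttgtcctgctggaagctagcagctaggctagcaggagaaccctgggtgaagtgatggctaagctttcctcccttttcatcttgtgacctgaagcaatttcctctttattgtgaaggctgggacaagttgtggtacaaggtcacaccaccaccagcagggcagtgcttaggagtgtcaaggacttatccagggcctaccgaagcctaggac
Kcnh1, chr1:192190527-192190776, plus strand: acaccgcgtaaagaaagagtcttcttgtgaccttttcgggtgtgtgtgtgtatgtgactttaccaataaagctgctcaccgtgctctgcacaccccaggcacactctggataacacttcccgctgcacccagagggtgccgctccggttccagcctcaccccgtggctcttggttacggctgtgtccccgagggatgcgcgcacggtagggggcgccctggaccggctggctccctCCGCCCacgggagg

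GGGCGG (on the other strand CCGCCC) stands once upstream of Kcnd2 and once upstream of Kcnh1, and in none of the other three windows. Of all 32851 windows of the same length in the RefSeq table, 32.7% hold it on either strand. TAATTA is in none of the 5 windows and in 4.8% of all windows. The G and C share of the windows was 68.8% for Kcnd2, 62% for Kcnh1, 58.8% for Kcna6, 53.2% for Kcne4 and 51.2% for Kcnf1, with a median of 52.4% over all windows. Of the 37 genes, 26 had an entry in this table.

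All levels below are log2(intensity + 16) after quantile normalization of the 26 arrays, a scale on which the floor of the deposited values lies at 4.09 and the overall median at 6.14. Differences are in log2 units on the same scale, which understates the differences of dim genes, and levels of different genes were not set against each other. A gene passed a comparison at a Benjamini-Hochberg adjusted p under 0.05 over all 13951 genes tested, with a difference, or a range of subtype means, of at least 1 log2 unit. Errors after differences are standard errors of the limma fit. Before normalization the 12 ganglion cell columns had median intensities of 61.5 to 74.8, against 37.4 to 47.1 in the 14 other columns. This scale cannot be told apart from the ganglion cell class.

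Summed marker lists were highest in the class they mark, with exceptions in single genes and in MP cells. The summed intensity of 6 ganglion cell markers was 173.9 to 3965 on bipolar arrays, 20300 to 27380 on ganglion cell arrays and 328.9 to 2599 on amacrine arrays. The 4 bipolar markers measured summed to 9901 to 17650 on bipolar arrays, 3419 to 5488 on ganglion cell arrays and 512.7 to 7603 on amacrine arrays. Single markers crossed classes: Thy1 averaged 11.67 in MP bipolar cells, against 10.69 to 11.77 in the ganglion cell groups. Isl1 averaged 12.82 in ON bipolar and 9.55 in MP bipolar cells, against 12.81 in starburst cells and 11.86 to 12.28 in the ganglion cell groups. The amacrine marker Pax6 averaged 9.72 to 11.08 in the ganglion cell groups, against 10.08 to 11.40 in the amacrine groups. The amacrine markers summed to 328.7 to 425.7 on bipolar arrays, 877.6 to 3274 on ganglion cell arrays and 4331 to 21310 on amacrine arrays, where MP amacrine cells were at 4577 and 4331 and the other amacrine arrays at 15860 or above. Rod photoreceptor markers summed to 4347 to 9363 on bipolar arrays, 133.0 to 1510 on ganglion cell arrays and 791.0 to 11770 on amacrine arrays. Microglia markers summed to 204.1 to 1644 on bipolar arrays, 623.8 to 15710 on ganglion cell arrays and 243.7 to 4189 on amacrine arrays, and all 6 passed as higher in ganglion than in amacrine cells. The highest rod sums on amacrine arrays, 11770 and 7571, were those of MP amacrine cells. The part of these other cells in the differences below was not tested.

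Most of the channel genes differed between subtypes. Over all 13 subtypes 25 of the 27 genes tested passed, where 71.3% of all genes tested did, and the exceptions were Kcnd1, a Shal subunit, and Kcnh3, an EAG subunit. The median range of subtype means was 3.72 log2 units for the 27 genes and 1.58 for all genes tested. The widest ranges were 6.72 for Kcna5, 6.46 for Kcna1, 5.77 for Kcnh1 and 5.56 for Kcnd2. The number of the 37 genes above the overall median on both arrays of a subtype lay between 13 in MP bipolar cells and 21 in PaxCre amacrine and W7 ganglion cells.

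**Figure D1:**
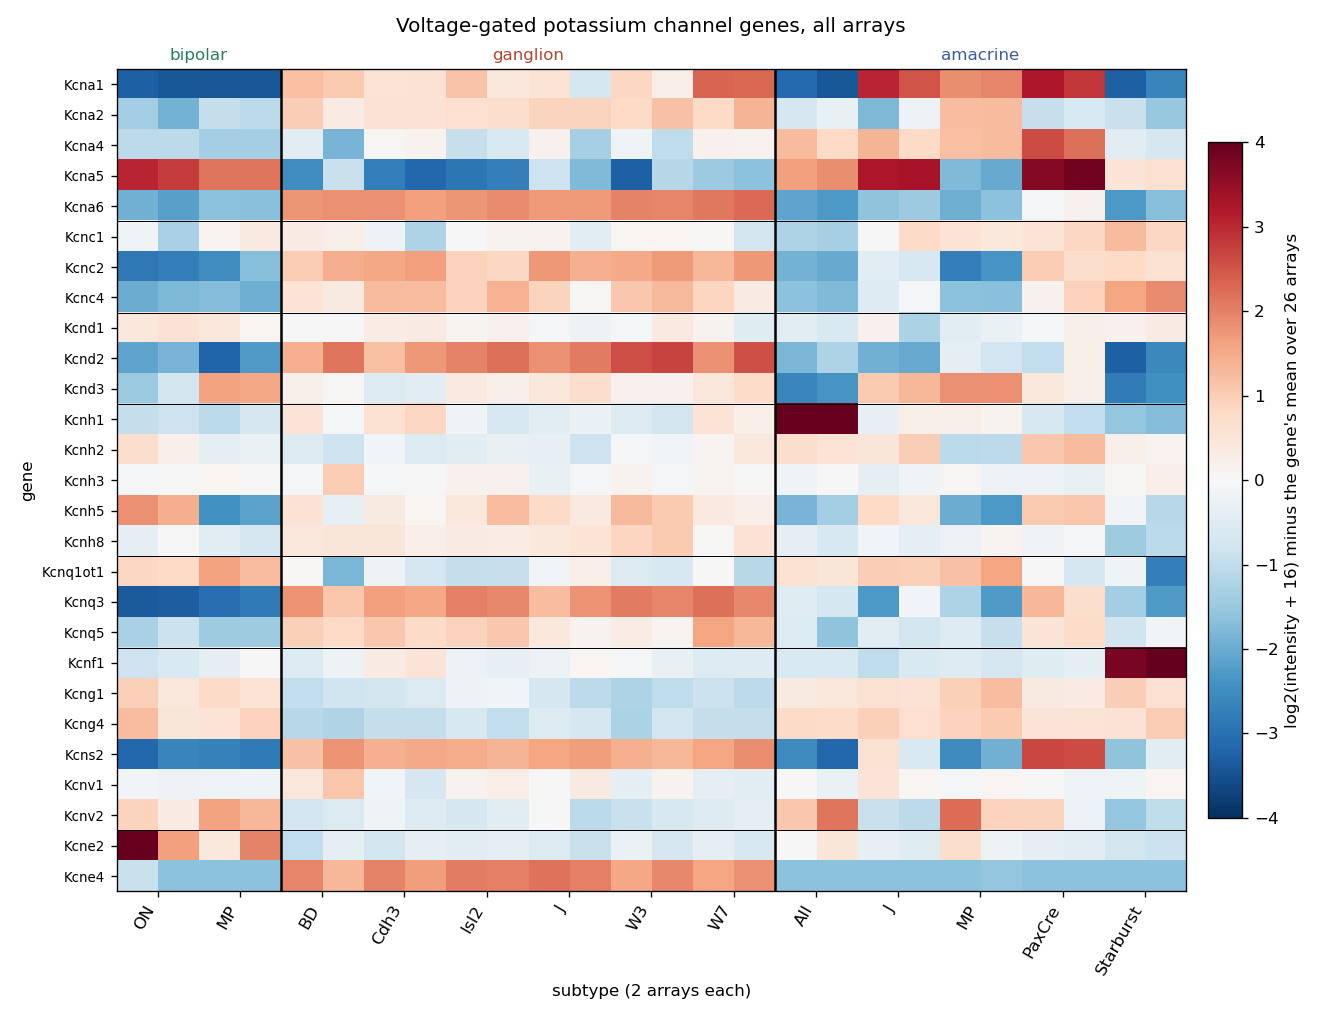
Level of each of the 27 genes tested (rows, grouped by family from Shaker at the top to KCNE at the bottom) on each of the 26 arrays (columns), as log2(intensity + 16) minus the gene's mean over all arrays. Kcnd2, Kcna6, Kcnq3 and Kcne4 are red across all 12 ganglion cell arrays, Kcnf1 stands out on both starburst arrays and Kcnh1 on both AII arrays.

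The first comparison asks which channel genes set ganglion cells apart from amacrine cells, the other spiking or partly spiking class of the inner retina. Of the 27 genes, 10 were higher in ganglion cells, against 15.8% of all genes tested, and 4 were lower, against 9.00%. The genes that rose came from every family: Kcna6 and Kcna2 (Shaker), Kcnc2 and Kcnc4 (Shaw), Kcnd2 (Shal), Kcnq3 and Kcnq5 (KCNQ), Kcnh5 (EAG), Kcns2 (modifier) and Kcne4 (accessory). Those that fell were the Shaker subunits Kcna5 and Kcna4 and the modifiers Kcng4 and Kcng1. The median difference of the 27 genes was 0.27, against 0.0027 for all genes tested, and the median absolute difference 1.08, against 0.46. Of the 14 genes that passed, 5 were separated on every array, namely Kcnd2, Kcne4, Kcna6, Kcng4 and Kcng1. Separation was not counted over all genes tested, here or below, so it cannot be read as particular to the channel genes.

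Kcnd2 encodes Kv4.2, the pore subunit of a fast inactivating A-type current of dendrites. Its level was 10.20 to 11.70 (median 11.02) on the 12 ganglion cell arrays, against 5.72 to 9.22 (median 7.48) on the 10 amacrine arrays. The lowest ganglion cell array thus lay above the highest amacrine array, a PaxCre replicate. The difference was 3.50 ± 0.17 (adjusted p = 2.04e-12), or 11.3-fold. 2 dimmer probe sets of Kcnd2 gave 1.80 and 1.61, and the dimmest, near the floor, gave -0.48.

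Kcna6 encodes Kv1.6, a Shaker subunit that takes part in low-threshold currents. It lay at 8.96 to 9.59 (median 9.15) on ganglion cell arrays, against 5.02 to 7.51 (median 5.65) on amacrine arrays, and the groups did not overlap. The 12 ganglion cell arrays spanned less than 1 log2 unit, and the 2 amacrine arrays nearest to them, at 7.24 and 7.51, were those of PaxCre cells. The difference was 3.36 ± 0.08 (adjusted p = 2.25e-16). It rests on a single probe set, since the other probe sets of Kcna6 gave -0.13 and 0.19.

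Kcnq3 encodes a subunit of the M-current, which holds back repetitive firing. Its level was 8.60 to 9.70 (median 9.34) on ganglion cell arrays, against 5.18 to 8.81 (median 6.52) on amacrine arrays. The classes overlapped through 1 PaxCre array at 8.81, while the other 9 amacrine arrays were at 8.18 or below. The difference was 2.64 ± 0.21 (adjusted p = 3.37e-09), and a second probe set gave 1.10. Kcnq5, another M-current subunit, was higher by 1.23 ± 0.12 (adjusted p = 6.91e-08), at 5.99 to 7.47 on ganglion cell arrays, against 4.28 to 6.62 on amacrine arrays. Its difference was 0.92 with the C57BL/6 subtypes alone, 0.88 between the J groups and 0.69 with a pseudocount of 64, each below 1.

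Kcns2 encodes Kv9.2, a silent subunit that modifies Kcnb channels. It was at 9.32 to 10.01 (median 9.66) on all ganglion cell arrays, against 5.02 to 10.83 (median 7.05) on amacrine arrays. The difference of 2.20 ± 0.16 (adjusted p = 6.44e-10) therefore averages amacrine subtypes that lay on both sides of the ganglion cells: PaxCre cells, at 10.83 and 10.75, were above every ganglion cell array. With the C57BL/6 subtypes alone the difference was 0.99. A second probe set of Kcns2, with a mean level of 5.17, gave -0.17.

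Kcne4, an accessory subunit that can silence some Shaker and KCNQ channels, was read at 7.04 to 7.88 (median 7.65) on the 12 ganglion cell arrays, against 4.09 to 4.17 on the 10 amacrine arrays, which is the floor of the scale. The difference was 3.46 ± 0.10 (adjusted p = 1.48e-15), and the bipolar arrays were at 4.84, 4.09, 4.09 and 4.09. Kcne4 thus passed the filter only through the ganglion cell arrays, where it was high. Its adjusted p in class comparisons lends no support of its own. All 6 microglia markers were also higher in ganglion cells, with the sums given above. Vessel markers summed to 30.63 to 51.75 on bipolar arrays, 115.5 to 6753 on ganglion cell arrays and 43.58 to 600.9 on amacrine arrays. The 1 vessel marker tested was higher in ganglion than in amacrine cells. The part of either in the Kcne4 signal was not tested.

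The Shaw subunits serve fast spiking, since their channels open and close quickly at strong depolarization. Kcnc2 (Kv3.2) was at 9.48 to 10.40 on ganglion cell arrays, against 5.88 to 9.69 on amacrine arrays, a difference of 2.10 ± 0.10 (adjusted p = 2.61e-12). Kcnc4 (Kv3.4) differed by 1.13 ± 0.12 (adjusted p = 1.62e-07), but starburst cells, at 8.90 and 9.20, were above every ganglion cell array. Kcnc1 (Kv3.1), at 8.62 to 11.21 over all 26 arrays, differed by -0.40 and did not pass. With the C57BL/6 subtypes alone the Kcnc4 difference was 0.11 (adjusted p = 0.596), and without the MP amacrine arrays it was 0.79. With subtype means as the units of the test, which takes the spread between subtypes as the error, Kcnc4 did not pass (adjusted p = 0.1055).

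Of the remaining genes that were higher in ganglion cells, Kcna2 (Kv1.2), a partner of Kcna1 and Kcna6 in axonal channels, was at 10.02 to 11.04 on ganglion cell arrays, against 7.88 to 10.95 on amacrine arrays (1.26 ± 0.16, adjusted p = 1.33e-06). Its second probe set gave 0.59. Kcnh5 (EAG2) differed by 1.08 ± 0.14 (adjusted p = 2.60e-06). Without the second starburst array the difference was 0.99, with the C57BL/6 subtypes alone 0.25 (adjusted p = 0.260) and without the MP amacrine arrays 0.68, and the call was lost each time. Between the J ganglion and J amacrine cells, which share a reporter name, it was -0.04. With subtype means as the units of the test Kcnh5 did not pass either (adjusted p = 0.2278).

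Kcna5 encodes Kv1.5, a slowly inactivating Shaker subunit, and showed the largest fall. It lay at 5.02 to 7.45 (median 6.16) on ganglion cell arrays, against 6.26 to 12.13 (median 10.02) on amacrine arrays. MP amacrine cells, at 6.52 and 6.26, overlapped the ganglion cells, whereas the other 8 amacrine arrays were at 8.78 or above. The difference was -3.58 ± 0.22 (adjusted p = 4.46e-11). Kcna4 (Kv1.4), an A-type Shaker subunit, fell by 1.52 (SE 0.19, adjusted p = 8.88e-07), at 5.19 to 7.23 on ganglion cell arrays, against 6.40 to 9.67 on amacrine arrays.

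Kcng4 and Kcng1 encode silent subunits. Kcng4 was at 4.71 to 5.42 on ganglion cell arrays, against 6.47 to 7.01 on amacrine arrays (-1.69 ± 0.10, adjusted p = 5.28e-11). Kcng1 was at 4.33 to 5.48 on ganglion cell arrays, against 5.90 to 6.82 on amacrine arrays (-1.43 ± 0.08, adjusted p = 3.58e-11). Neither pair of ranges overlapped, yet both genes were dim, and with a pseudocount of 64 their differences were -0.94 and -0.70. The second probe set of Kcng1 gave 0.33. No ganglion cell array was above the overall median for either gene. Both thus passed the filter only through bipolar and amacrine arrays, where they were high. Their adjusted p against ganglion cells lends no support of its own.

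Kcna1, which encodes Kv1.1, the subunit of low-threshold currents at axons, did not pass between these classes. Its ganglion cell arrays were at 7.28 to 10.33, against 4.60 to 11.22 on amacrine arrays, and the difference of 0.57 ± 0.14 was below 1 log2 unit. The amacrine subtypes fell into 2 levels: the AII and starburst arrays were at 5.37 or below, and the J, MP and PaxCre arrays at 9.85 or above, with only W7 of the ganglion cells reaching the same levels. The next 2 probe sets of Kcna1 gave -0.79 and -0.78 for the class difference, so its direction depends on the probe set.

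**Figure D2:**
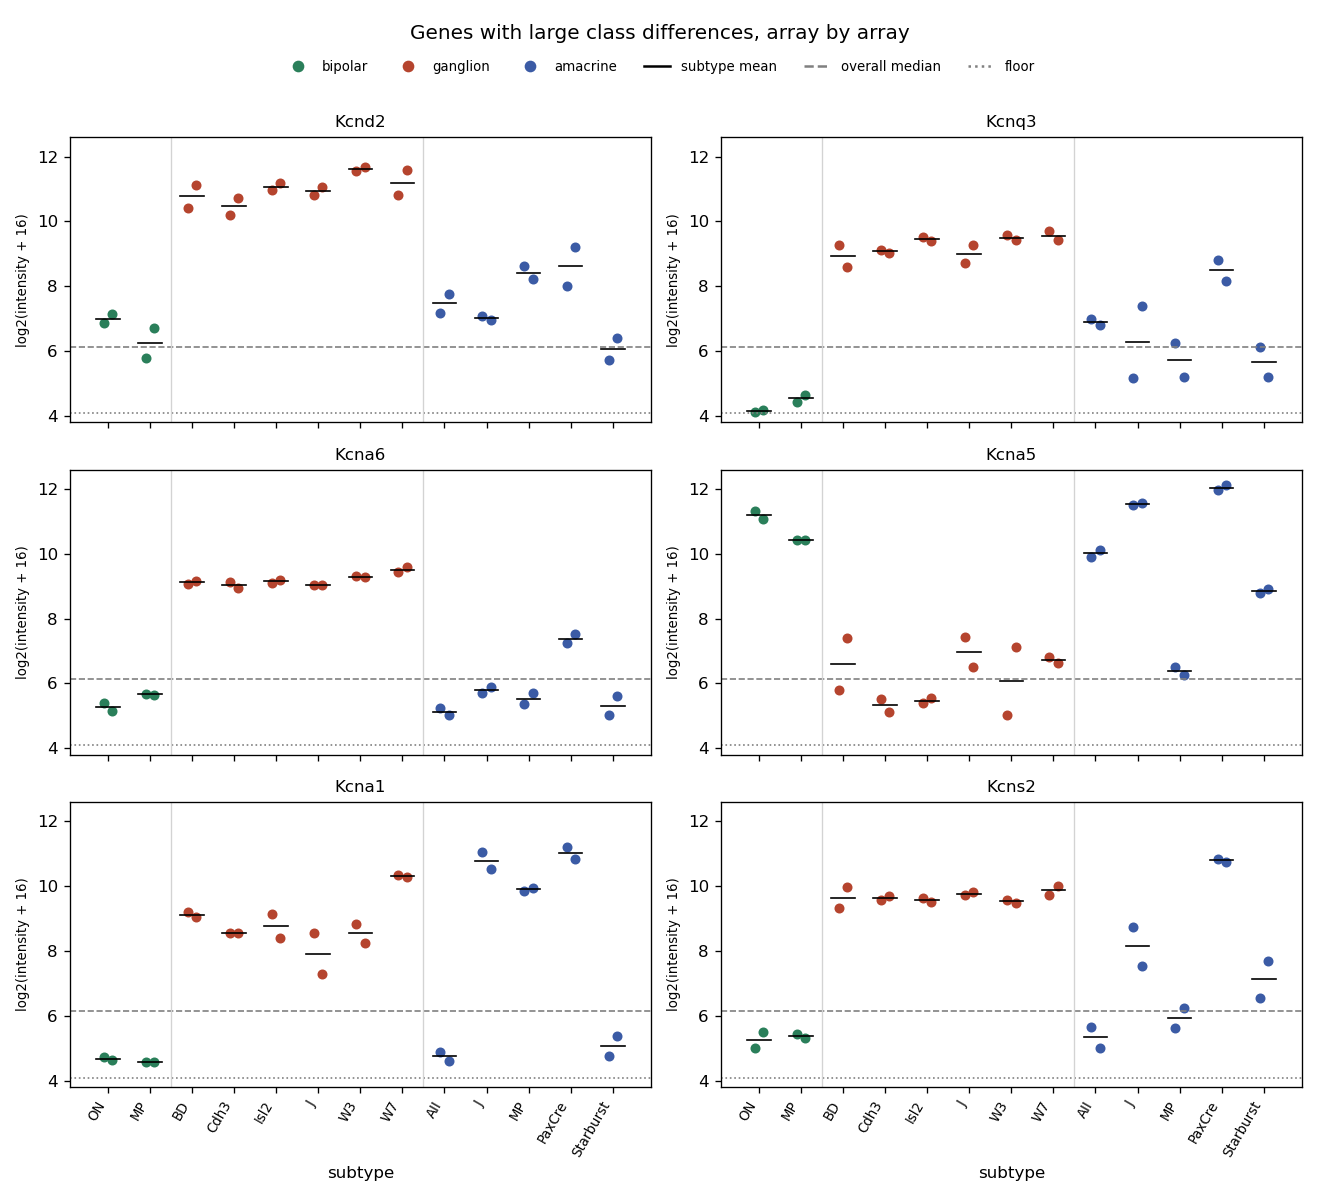
Levels of 6 genes on every array, as log2(intensity + 16), by subtype on the horizontal axis, with points for the 2 arrays of a subtype, black bars for their mean, a dashed line at the overall median (6.14) and a dotted line at the floor (4.09). Ganglion cell points of Kcnd2 and Kcna6 lie above all bipolar and amacrine points, while Kcna1 and Kcns2 split the amacrine subtypes.

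The second comparison sets bipolar cells, which lack axons into the brain and signal over short distances, against ganglion cells. Of the 27 genes, 6 were higher in bipolar cells, against 11.2% of all genes tested, and 10 were lower, against 18.5%. All 16 were separated on every array, a count that was not made over all genes tested. The median difference was -0.72, against 0.02 for all genes tested. Every family except EAG had a member that fell: Kcna1, Kcna2 and Kcna6, Kcnc2 and Kcnc4, Kcnd2, Kcnq3 and Kcnq5, Kcns2 and Kcne4. This comparison shares its ganglion cell arrays with the preceding one.

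The largest fall was that of Kcnq3, at 4.14, 4.18, 4.44 and 4.64 on the bipolar arrays, against 8.60 to 9.70 on ganglion cell arrays (-4.90 ± 0.29, adjusted p = 5.38e-11). The bipolar values lay close to the floor. Kcnd2 was at 6.87, 7.14, 5.78 and 6.72 on bipolar arrays, against 10.20 to 11.70 on ganglion cell arrays (-4.39 ± 0.23, adjusted p = 9.82e-12). Kcns2 was at 5.02, 5.50, 5.45 and 5.31, against 9.32 to 10.01 (-4.35 ± 0.22, adjusted p = 5.00e-12). None of these bipolar arrays came within 2 log2 units of a ganglion cell array. Other probe sets gave -1.21 for Kcnq3, -2.40, -1.93 and 0.48 for Kcnd2, and -0.17 for Kcns2.

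Kcna1 was at 4.73, 4.62, 4.58 and 4.58 on bipolar arrays, against 7.28 to 10.33 on ganglion cell arrays (-4.24 ± 0.19, adjusted p = 1.71e-12). Kcnc2 was at 5.81, 5.89, 6.19 and 6.96, against 9.48 to 10.40 (-3.85 ± 0.14, adjusted p = 8.21e-14). Kcna6 was at 5.39, 5.16, 5.68 and 5.64, against 8.96 to 9.59 (-3.72 ± 0.11, adjusted p = 7.15e-15). For these genes, too, the bipolar arrays lay below the overall median or within 1 log2 unit of it. Other probe sets gave -1.10, -1.89 and 0.03 for Kcna1, and -1.09 and -0.45 for Kcna6. Kcne4 fell by 3.28 (SE 0.13), Kcnc4 fell by 2.73 (SE 0.16), Kcna2 fell by 2.13 (SE 0.21) and Kcnq5 fell by 2.04 (SE 0.17).

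The bipolar cells were not low throughout. Kcna5 was at 11.33, 11.06, 10.41 and 10.44 on bipolar arrays, against 5.02 to 7.45 on ganglion cell arrays, 4.62 ± 0.29 higher (adjusted p = 1.29e-10). Kcne2, an accessory subunit known to join KCNQ and EAG channels, was higher by 2.80 ± 0.38 (adjusted p = 4.30e-06). Its 4 bipolar arrays were uneven, at 10.01, 6.76, 5.53 and 7.10, against 4.14 to 4.84 on ganglion cell arrays. The highest was the first ON bipolar array, and without it the difference was 1.997. Only 3 arrays, all bipolar, were above the overall median for Kcne2, so it passed the filter through the class where it was high. Its adjusted p, here and against amacrine cells, lends no support of its own.

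The modifiers Kcng4 (1.71 ± 0.14, adjusted p = 4.42e-09), Kcnv2 (1.60 ± 0.25, adjusted p = 2.44e-05) and Kcng1 (1.45 ± 0.11, adjusted p = 2.76e-09) were also higher in bipolar than in ganglion cells. Kcng4 and Kcng1 passed the filter only through bipolar and amacrine arrays, and their adjusted p lends no support of its own. With subtype means as the units of the test Kcnv2 did not pass (adjusted p = 0.07564). Kcnv2, known in photoreceptors as a partner of Kcnb subunits, was at 7.44, 6.88, 8.18 and 7.88 on bipolar arrays, against 5.47 to 6.53 on ganglion cell arrays. The summed rod markers moved with it, at 4347 to 9363 on bipolar arrays and 133.0 to 1510 on ganglion cell arrays, and their part in its level was not tested. The noncoding Kcnq1ot1 was higher by 1.67 ± 0.35 (adjusted p = 4.15e-04). Kcnq1 itself was not tested: it was listed at 5.43 to 5.86 on bipolar, 4.09 to 4.29 on ganglion cell and 4.91 to 5.86 on amacrine arrays, all below the overall median.

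Against amacrine cells, 2 of the 27 genes were higher in bipolar cells, where 4.67% of all genes tested were, and 7 were lower, where 5.70% were. Those that fell were Kcna1 (-3.68 ± 0.20, adjusted p = 1.15e-10), Kcnq3 (-2.26 ± 0.30), Kcna4 (-2.24 ± 0.26), Kcns2 (-2.14 ± 0.22), Kcnc2 (-1.75 ± 0.14), Kcnc4 (-1.60 ± 0.17) and Kcnh1 (-1.24 ± 0.14). Those that rose were Kcne2 (2.47 ± 0.39, adjusted p = 8.71e-05) and Kcna5 (1.04 ± 0.30, adjusted p = 0.0113). The median difference of the 27 genes was -0.26, against 0.01 for all genes tested.

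Only Kcnq3 and Kcna4 of these 9 were separated on every array, again without a count over all genes tested. Kcna4 was at 6.02, 6.01, 5.70 and 5.71 on bipolar arrays, against 6.40 to 9.67 on amacrine arrays. Both differences rest on a single probe set, since the second probe set gave -0.04 for Kcna4 and -0.11 for Kcnq3. For the other 5 that fell, some amacrine array lay as low as the bipolar cells, as for Kcna1, at 4.58 to 4.73 on bipolar arrays, against 4.60 to 5.37 on the AII and starburst arrays. For Kcna5 and Kcne2 some amacrine array lay as high as the bipolar cells. With subtype means as the units of the test, which takes the spread between subtypes as the error, 1 of the 9 genes passed, Kcne2. Between the MP bipolar and MP amacrine cells, which differ in the VC1.1 gate and share a reporter name, Kcna1 differed by -5.32 and Kcna5 by 4.03, and Kcna4 and Kcnh1 passed as well. Of the 9 genes the other 5 did not pass there: Kcnc2 differed by 0.48, against -1.75 over all subtypes, Kcnc4 by -0.20, Kcns2 by -0.55, Kcnq3 by -1.19 and Kcne2 by 0.95. Without the first ON bipolar array Kcna5 differed by 0.97 (adjusted p = 0.0549) and Kcne2 by 1.66. With the C57BL/6 subtypes alone Kcnh1 differed by -0.05 and Kcna5 by 0.38, and neither passed. Without the MP amacrine arrays Kcna5 differed by 0.20 (adjusted p = 0.670), and 12 channel genes passed in place of 9.

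**Figure D3:**
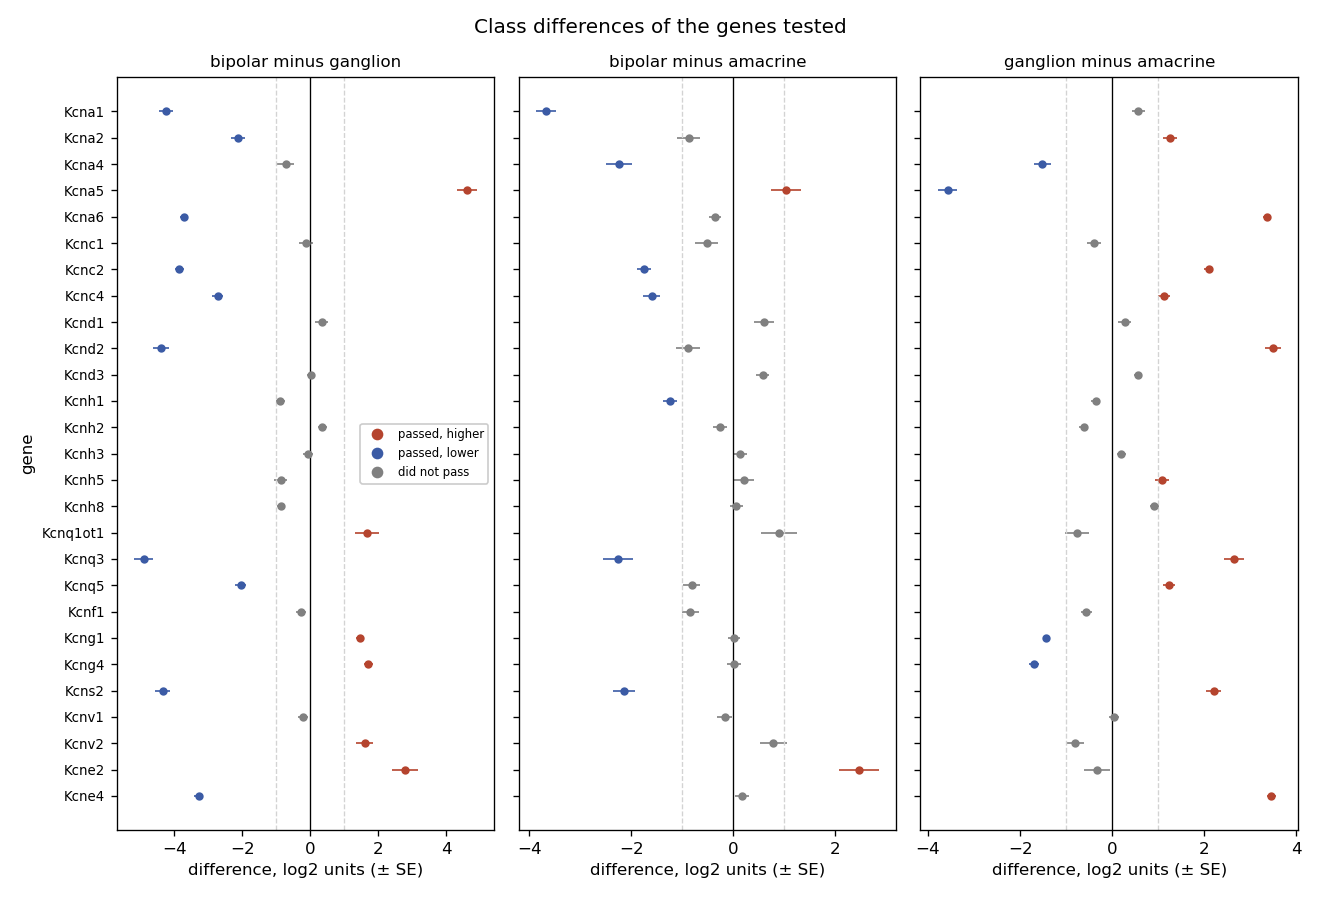
Difference of each of the 27 genes tested (rows) in the bipolar minus ganglion, bipolar minus amacrine and ganglion minus amacrine comparisons, in log2 units with bars for the standard error. Red points passed as higher, blue points passed as lower and grey points did not pass, and dashed lines mark 1 log2 unit. In the bipolar minus ganglion panel Kcna5 lies at 4.62, while Kcnq3, Kcnd2, Kcns2 and Kcna1 lie below -4.

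The 2 bipolar groups differed in 2 of the 27 genes, against 5.03% of all genes tested. Kcnh5 was at 8.42 and 8.03 in ON bipolar cells, against 4.18 and 4.46 in MP bipolar cells, 3.91 ± 0.34 higher (adjusted p = 3.05e-07). MP bipolar cells were at or near the floor for this EAG subunit. Kcnd3, which encodes Kv4.3 and forms A-type channels, was at 8.77 and 9.55 in ON bipolar cells, against 11.88 and 11.82 in MP bipolar cells (-2.69 ± 0.22, adjusted p = 1.64e-07). A second probe set of Kcnd3 gave -1.36. Strain and reporter differ between these groups as well and cannot be told apart from the subtype.

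Among the 6 ganglion cell subtypes 4 of 27 genes passed the test over subtype means (14.8%), where 5.94% of all genes tested did. The median range was 0.95 log2 units, against 0.58 for all genes tested. The genes that passed were Kcna1 (range 2.39, adjusted p = 0.00236), Kcnh1 (1.33, adjusted p = 0.00416), Kcnv1 (1.18, adjusted p = 0.0254) and Kcnd3 (1.07, adjusted p = 0.0289). The count depended on single arrays, at 2 without the second W7 array and 8 without the first BD array. Some genes with large class differences varied little across ganglion cells: the range of subtype means was 0.34 for Kcns2, 0.45 for Kcne4, 0.49 for Kcna6 and 0.63 for Kcnq3, and none of these passed. Kcnd2 had a range of 1.16 and did not pass either (adjusted p = 0.404). Kcna5 had a range of 1.65 and did not pass (adjusted p = 0.141).

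Kcna1 was the gene with the widest range within the class. It was at 10.33 and 10.29 in W7 cells, against 7.28 to 9.20 on the 10 other ganglion cell arrays, and W7 was 1.73 ± 0.26 above the mean of the others (adjusted p = 8.64e-04). The next 2 probe sets gave 1.87 and 2.04, and the dimmest gave -0.07. J ganglion cells were lowest, at 8.55 and 7.28, and 1.14 below the others (SE 0.26, adjusted p = 0.0216), although their first array lay among those of Cdh3 and W3 cells. In J ganglion cells 3 of 6 amacrine markers, 1 of 4 rod, 1 of 6 microglia and 1 of 4 Muller glia markers were higher than in the others, and the second J array had the highest microglia sum, 15710. Their part in the Kcna1 difference was not tested. Kcnh1, which encodes the EAG1 subunit, had its highest mean in Cdh3 cells, at 6.99 and 7.19, and its lowest in W3 cells, at 5.86 and 5.64. Against the other ganglion cells it differed by 0.87 in Cdh3 and -0.73 in W3 cells, but its second probe set gave 0.15 and -0.14. Kcnv1, a silent subunit, was at 6.89 and 7.53 in BD cells, against 5.74 to 6.80 on the other ganglion cell arrays. Kcnd3 was lowest in Cdh3 cells, at 9.72 and 9.85, against 10.30 to 10.99 on the others. The difference was -0.83, but the other probe sets of Kcnd3 gave -0.01 to 0.08.

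W7 and J thus had 1 gene each past both thresholds, where 1.37% and 2.04% of all genes tested passed. BD, Cdh3, Isl2 and W3 cells had 0 of 27 in the limma fit, where 0.495%, 2.09%, 0.222% and 0.803% of all genes did. At an unadjusted p under 0.05 the counts were 5 in BD, 8 in Cdh3, 4 in Isl2 and 6 in W3 cells. The share of all genes at this threshold was not counted, so no difference of the channel genes can be read from them. The largest differences in these were 0.88 for Kcnv1 in BD, 1.05 for Kcna5 in Cdh3, 0.88 for Kcna5 in Isl2 and 0.75 for Kcnh5 in W3 cells, as absolute values. No other testing tool was run.

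The amacrine subtypes differed far more. Over the 5 subtypes 20 of the 27 genes passed (74.1%), where 40.2% of all genes tested did, with a median range of 2.55 log2 units, against 0.92 for all genes. The widest ranges were 6.29 for Kcna1, 5.77 for Kcnh1, 5.65 for Kcna5, 5.46 for Kcns2, 5.18 for Kcnf1 and 4.44 for Kcnd3. The 7 genes that did not pass were Kcnd1, Kcne2, Kcne4, Kcng1, Kcng4, Kcnh3 and Kcnv1.

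Starburst cells, the cholinergic amacrine cells of direction-selective circuits, had 3 genes higher and 10 lower than the mean of the other amacrine subtypes, where 10.9% of all genes tested passed in either direction. Kcnf1 encodes Kv5.1, a silent subunit. It was at 9.01 and 10.15 on the starburst arrays, against 4.20 to 4.85 on the 8 other amacrine arrays, 4.97 ± 0.22 higher (adjusted p = 9.43e-12). No other array of the series was above 5.72 for this gene. Kcnf1 thus passed the filter only through the starburst arrays, where it was high, and its adjusted p lends no support of its own. A second, dimmer probe set gave 1.68.

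2 Shaw subunits were higher in starburst cells as well. Kcnc4 was at 8.90 and 9.20, against 5.54 to 8.25 on the other amacrine arrays (2.50 ± 0.22, adjusted p = 1.29e-07). Kcnc2 was at 9.46 and 9.27, with the PaxCre arrays at 9.69 and 9.37, and differed from the mean of the others by 1.75 ± 0.19 (adjusted p = 1.61e-06). Kcnc1 reached its highest mean of the 13 subtypes here, at 11.21 and 10.78, but its difference of 0.99 did not pass. The largest falls were those of Kcna1 (-4.06 ± 0.27, adjusted p = 2.20e-09), Kcnd3 (-2.83 ± 0.17, adjusted p = 8.77e-10) and Kcnh1 (-2.52 ± 0.18, adjusted p = 9.78e-09). Kcna1 and Kcnd3 were as low in AII cells, and only Kcnh1 of these was separated from every other amacrine array.

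AII cells, which carry rod signals to the cone pathways, had 2 genes higher and 8 lower, where 16.2% of all genes tested passed. Kcnh1 was at 10.52 and 10.43 on AII arrays, against 4.63 to 6.60 on the other amacrine arrays, 4.70 ± 0.18 higher (adjusted p = 7.65e-12). The highest level outside AII cells was 7.19, on a Cdh3 ganglion cell array, and a second probe set of Kcnh1 gave 4.14. Kcnv2 was at 7.62 and 8.70, 1.69 ± 0.35 above the others (adjusted p = 9.60e-04), but one MP array, at 8.78, lay higher. Kcna1 was at 4.89 and 4.60 (-4.45 ± 0.27, adjusted p = 1.01e-09), and Kcnd3 (-2.67 ± 0.17) and Kcns2 (-2.67 ± 0.29) were the next largest falls. For Kcns2 the AII arrays, at 5.65 and 5.02, overlapped the MP amacrine arrays, at 5.64 and 6.23. The second probe set of Kcns2 gave -0.25.

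MP amacrine cells had 6 genes higher and 8 lower, where 10.4% of all genes tested passed. In the same comparison 4 of 4 rod markers and 3 of 4 bipolar markers were higher (median differences 2.34 and 1.28) and 3 of 6 amacrine markers lower (median -1.95), and their part in the values below was not tested. Kcnd3 was at 12.09 and 12.11, above the 7.48 to 11.61 of the other amacrine arrays (2.72 ± 0.17, adjusted p = 6.83e-09). Kcna2 (2.12 ± 0.29, adjusted p = 4.66e-05) and Kcna1 (1.99 ± 0.27, adjusted p = 3.24e-05) followed. For Kcna1 the mean of the others includes the low AII and starburst arrays. MP cells, at 9.85 and 9.95, lay below the J and PaxCre arrays, at 10.51 to 11.22. The next probe sets of Kcna1 gave 0.24 and 0.70, and the dimmest gave -0.29. The largest fall was that of Kcna5, at 6.52 and 6.26, against 8.78 to 12.13 on the other amacrine arrays (-4.22 ± 0.40, adjusted p = 6.48e-07). Kcnc2 (-2.34 ± 0.19) and Kcnh5 (-2.01 ± 0.27) were next, and all of these falls were separated on every array.

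PaxCre cells, described as GABAergic, had 12 genes higher and 2 lower, where 6.54% of all genes tested passed. Kcns2 was at 10.83 and 10.75, against 5.02 to 8.75 on the other amacrine arrays, 4.16 ± 0.29 higher (adjusted p = 2.19e-08). Its second probe set, near the floor, gave 0.54. Kcna1 (3.42 ± 0.27, adjusted p = 6.49e-08) and Kcna5 (2.84 ± 0.40, adjusted p = 6.71e-05) were the next largest rises. Kcna5 was at 11.96 and 12.13, its highest mean of the 13 subtypes. The genes that fell were Kcnh1 (-1.46 ± 0.18) and Kcnf1 (-1.01 ± 0.22). The mean of the others includes the high AII arrays for Kcnh1 and the high starburst arrays for Kcnf1. For Kcnh1 PaxCre cells, at 5.71 and 5.38, lay above starburst cells, at 4.77 and 4.63. For Kcnf1, at 4.74 and 4.85, they lay above the AII, J and MP arrays, at 4.20 to 4.70.

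J amacrine cells, described as glycinergic, had 4 genes higher and 2 lower, where 6.06% of all genes tested passed. Kcna1 was at 11.04 and 10.51 (3.09 ± 0.27, adjusted p = 4.64e-07), Kcna5 at 11.52 and 11.58 (2.22 ± 0.40, adjusted p = 0.00106) and Kcnd3 at 11.32 and 11.61 (1.93 ± 0.17, adjusted p = 7.87e-07). For each of these another amacrine subtype lay at a like level or above, PaxCre for Kcna1 and Kcna5 and MP for Kcnd3. Kcnv2 (-1.52 ± 0.35) and Kcnf1 (-1.50 ± 0.22) were lower, and for Kcnf1 the mean of the others includes the starburst arrays. The 5 amacrine comparisons share their arrays, so their counts are not independent.

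**Figure D4:**
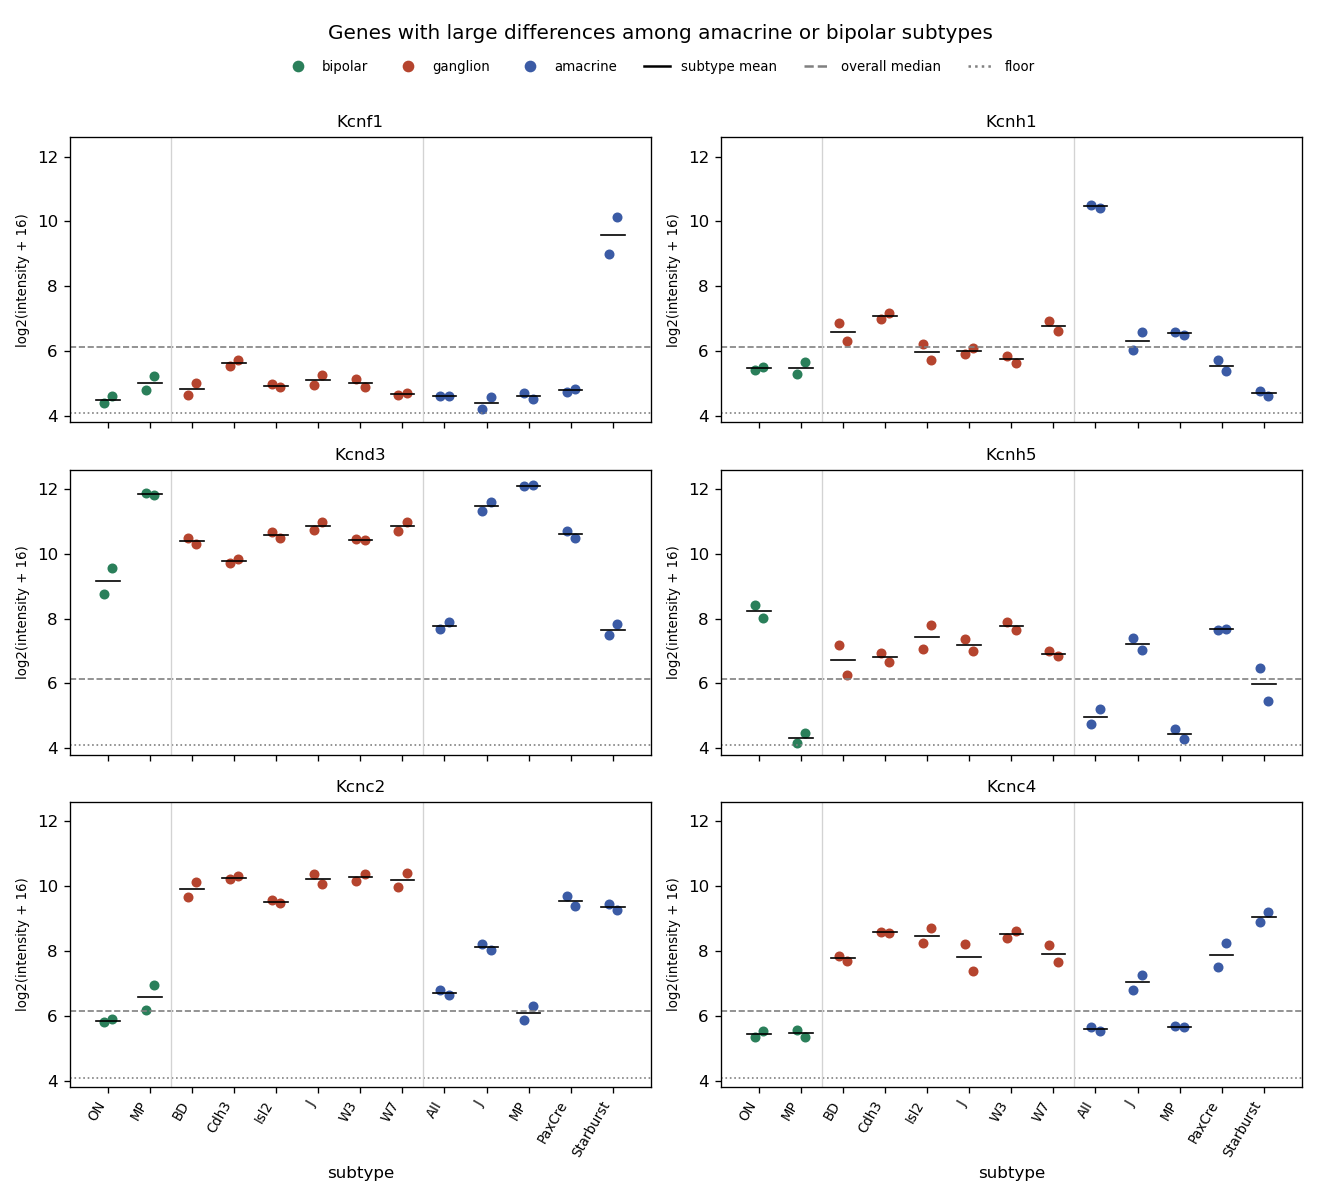
Levels of 6 genes on every array, as log2(intensity + 16), by subtype on the horizontal axis, with points for the 2 arrays of a subtype, black bars for their mean, a dashed line at the overall median (6.14) and a dotted line at the floor (4.09). Kcnf1 exceeds 9 only on the starburst arrays, Kcnh1 exceeds 10 only on the AII arrays, and Kcnh5 separates ON bipolar from MP bipolar cells.

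**Figure D5:**
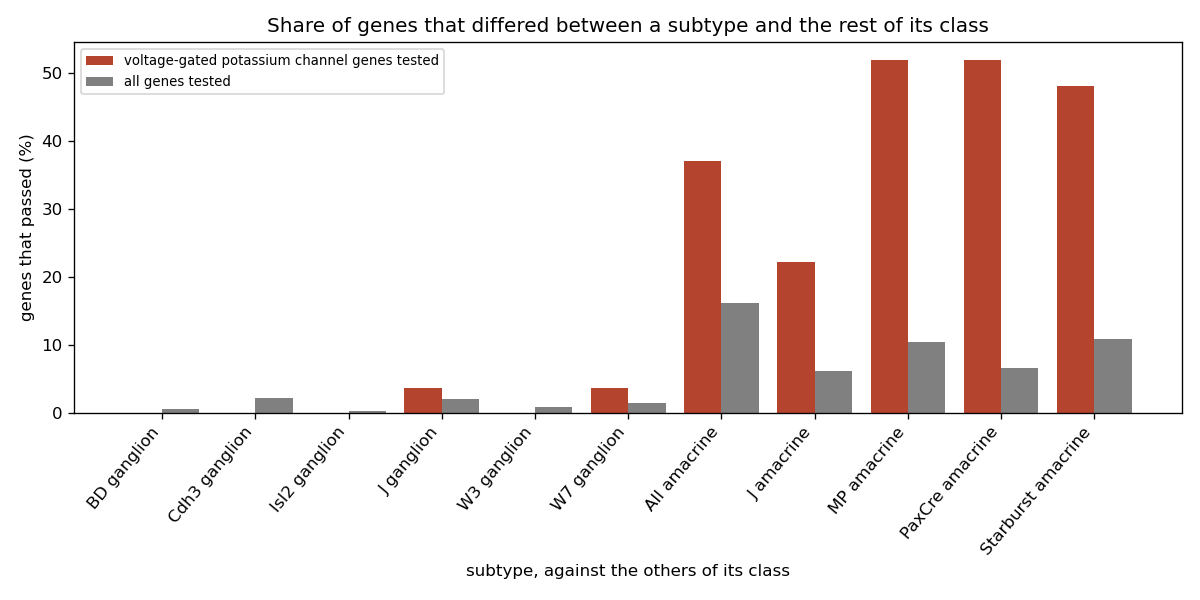
Percent of genes that passed when a subtype was compared with the mean of the other subtypes of its class, for the 27 channel genes tested (red) and all 13951 genes tested (grey). The red bars are 0 or 3.70% for ganglion cell subtypes and between 22.2% and 51.9% for amacrine subtypes.

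Proteins that join these channels were followed through a list of 16 genes, of which 14 were tested. In ganglion against amacrine cells, where 24.8% of all genes tested passed in either direction, 4 were higher and 0 lower: Dpp10 (2.89 ± 0.12) and Kcnip4 (2.16 ± 0.19), auxiliary subunits of Shal channels, Lgi1 (1.49 ± 0.09), a secreted protein that acts on Shaker channels, and Cntn2 (1.14 ± 0.11), an adhesion protein that gathers Shaker channels along axons. In bipolar against ganglion cells 4 were lower and 0 higher, where 29.6% of all genes passed. In bipolar against amacrine cells 1 of 14 passed (7.14%), where 10.4% of all genes did: the beta subunit Kcnab1 fell by 1.08 (SE 0.31, adjusted p = 0.0122). Kcnab1 (3.08 ± 0.53) and Cntnap2 (2.37 ± 0.35), which clusters Shaker channels, were higher in ON than in MP bipolar cells, where 5.03% of all genes passed. The median difference of the list was 0.60 in ganglion against amacrine cells, against 0.0027 for all genes tested.

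Of 40 other potassium channel genes, inward rectifiers, leak channels and calcium- or sodium-activated channels with their beta subunits, 27 were tested. In ganglion against amacrine cells 5 were higher and 5 lower, where 24.8% of all genes passed, with Kcnk16 at 2.98 ± 0.12, Kcnj8 at 2.32 ± 0.36 and Kcnk2 at -2.34 ± 0.17. In bipolar against amacrine cells 5 were higher and 5 lower, where 10.4% of all genes passed, with Kcnk3 at 2.97 ± 0.19 and Kcnj3 at -3.01 ± 0.14. In bipolar against ganglion cells 5 were higher and 7 lower, where 29.6% of all genes passed, with Kcnk3 at 4.05 ± 0.18, Kcnma1 at 3.92 ± 0.35 and Kcnk16 at -3.09 ± 0.17. Whether these lists differ from the voltage-gated genes was not tested.

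The 10 genes that were not tested were Kcna3, Kcna7, Kcne1, Kcne1l, Kcne3, Kcng2, Kcnh7, Kcnq1, Kcns1 and Kcns3. Their levels lay between 4.09 and 6.08 over all 26 arrays, below the overall median, and Kcnh7 did not exceed 4.28. At such levels a probe set that fails to bind and a gene without a transcript cannot be told apart. Tested genes below the threshold in each of the class comparisons were Kcnc1, Kcnd1, Kcnd3, Kcnf1, Kcnh2, Kcnh3, Kcnh8 and Kcnv1.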

How the data were processed

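The deposited values are intensities of Affymetrix probe sets on a linear scale, per the value table, 1 column per array. RNA was isolated with a PicoPure kit and amplified in 2 rounds with MessageAmp II-biotin, per the labels' protocols. Which software and scaling made them is not given in the sources used here. After 64 control probe sets were left out, 45037 entered quantile normalization, and of these 9160 without a symbol and 932 with several were then set aside. From log2(intensity + 16) the brightest probe set stood for each of 18193 genes, and 13951 with at least 2 of 26 arrays above 6.14 were tested.

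Genes were fitted in R 4.3.3 with limma 3.58.1 (1 mean per subtype, 13 residual and 4.59 prior degrees of freedom, two-sided tests, Benjamini-Hochberg adjustment within each comparison). Subtypes weighed equally within a class. Replicates are different litters, and with 2 arrays per subtype the number of arrays limits the precision. The script was tested on simulated data.

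The members and lists were chosen with earlier results of these data known. Named are the 5 marker genes, all genes that passed a class comparison or an F test within the ganglion class, up to 3 rises and 3 falls per subtype, and up to 4 genes per class comparison of the other lists. Samples with the same replicate number were not treated as pairs: over 78 pairs of subtypes their deviations correlated at -0.228 to 0.374 (median 0.03), with 21 above 0.1. Alternatives covered scaling, pseudocount, filter, probe sets, variance model, array weights, strain, reporter, MP amacrine arrays, the unit of the test and each array left out. Promoter windows came from RefSeq on GRCm38.p6.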

Additional observations from a re-analysis of the deposited data

Results flagged for a closer look

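In 38 groups of arrays (the 10 amacrine or 4 bipolar arrays of a gene that passed a class comparison), the highest or lowest array was set against its nearest neighbour. Chance marks about 1 in 20 groups by this check if the arrays of a group are independent draws from 1 distribution. These groups pool replicates of different subtypes, and some lie at the floor, so that rate need not hold here. The check marked 3. The second MP amacrine array had Kcne4 at 4.166, with the next amacrine array at 4.095, a gap of 0.903 of the range of the amacrine arrays, all of which lay at the floor. The first ON bipolar array had Kcne4 at 4.835, with the next bipolar array at 4.093 (0.993 of the range). The second starburst array had the noncoding Kcnq1ot1 at 5.28, with the next amacrine array at 7.32 (0.475 of the range).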

How the results depend on the processing

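Over 1555 alternatives of 39 gene results, 1504 kept direction and call, 48 lost the call and 3 reversed, and 16 of the 39 results kept the call under every alternative run. The reversals were Kcna6 in ganglion against amacrine cells (-0.13 with the next brightest probe set), Kcnh5 in the same comparison (-0.037 within the J reporter) and Kcnc2 in bipolar against amacrine cells (0.48 within the MP reporter). The 2 reporter comparisons and the fit without MP amacrine arrays were chosen after seeing the data. Their cause was not tested.

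Of the counts of channel genes, a pseudocount of 64 left 9 of 14 in ganglion against amacrine cells and 2 of 4 over the ganglion subtypes. The median over probe sets, with fewer genes tested, gave 9 of 14, 2 of 4, and 1 of 2 between the bipolar groups. The next brightest probe set, with 12 channel genes tested, gave 10 of 25 over all subtypes, 2 of 14, 5 of 9, 5 of 16, 2 of 4, 8 of 20 over the amacrine subtypes, 0 of 2 between the bipolar groups, and 18 of 59 for subtypes against their class. C57BL/6 subtypes alone, with fewer arrays, gave 2 of 4 and 32 of 59. That fit has no AII, MP or Cdh3 comparison, and in the 59 the AII comparison held 10 calls and the MP comparison 14. Subtype means as units gave 1 of 9 in bipolar against amacrine cells, 12 of 14 in ganglion against amacrine cells and 15 of 16 in bipolar against ganglion cells. Without a minimum difference the counts were 23 in place of 14 and 17 in place of 9. Without the MP amacrine arrays the 8 counts stayed within 1.5 times, at 12 in place of 9 in bipolar against amacrine cells and 44 in place of 59 for subtypes against their class. The 44 lacks the MP comparison itself.

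Leaving out each array in turn gave 24 to 26 over all subtypes, 14 and 16 in every case for ganglion against amacrine and bipolar against ganglion cells, 8 to 10 for bipolar against amacrine cells, 2 to 8 over the ganglion subtypes, 19 to 21 over the amacrine subtypes, 2 to 4 between the bipolar groups (4 without the second ON array) and 51 to 62 for subtypes against their class. With a replicate block the count for subtypes against their class was 58 in place of 59 and the other counts were as given.

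Without quantile normalization the median difference over all genes was 0.53 in ganglion against amacrine cells and -0.53 in bipolar against ganglion cells. The channel genes then split into 13 higher and 3 lower, in place of 10 and 4, and into 6 higher and 14 lower, in place of 6 and 10. The share of higher among all genes that passed was 85.5% in place of 63.7%, and 16.1% in place of 37.7%. Near the floor, differences are understated.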
